A study of Mus musculus with 24 samples.

Results

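Car2 and Car4 encode carbonic anhydrases, and their promoters were followed for H3K27me3, the repressive trimethyl mark on lysine 27 of histone H3, in cultured mouse cerebellar granule neurons (CGNs). They are 2 of the 16 carbonic anhydrase genes and 2 of the 21938 protein-coding genes with an annotated promoter. Both were picked from results of these data, because at a common list length (explained below) promoter coverage after the EZH2 inhibitor GSK-126 was lower at Car2 and higher at Car4 than with vehicle. The GSK-126 values of both genes are therefore given as a description without a test. A promoter was the 6 kb centred on the annotated 5′ end of a gene (3 kb to either side), and coverage is the share of those 6 kb, in percent, that lay under peaks of a library.

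The libraries came from CUT&RUN, a method that releases antibody-bound chromatin with a tethered nuclease and sequences it. There were 24 libraries in 8 groups of 3. A time course of 12 libraries ran over days in culture (DIV), with harvests at DIV1, DIV3, DIV5 and DIV7. In the first drug experiment 5 µM GSK-126 was set against its DMSO vehicle, and in the second 1 µM GSK-J4, which inhibits KDM6 enzymes that erase the mark, was set against its own DMSO libraries. Drug or DMSO was added on DIV1 and the cells were taken on DIV5. All groups were unmodified CGNs of CD1-IGS mice dissected at P6-P8, each replicate from pooled cerebella of litters, and all received 1 µM AraC, a blocker of cell division, on DIV2, except DIV1, which was harvested before it. Comparisons with DIV1 cannot be told apart from AraC. The dose of GSK-J4 was the one the study described as not toxic and lay below the dose reported to block KDM6 activity in other cells.

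Carbonic anhydrases convert carbon dioxide and water into bicarbonate and protons and so set the pH inside and around cells. Car2 is a soluble enzyme of the cytoplasm, abundant in red blood cells and, in brain, in oligodendrocytes and other glia. Car4 is tethered to the outer face of the cell membrane, on capillary endothelium among other cells, where it serves the buffering of the space between cells. H3K27me3 is written by EZH1 and EZH2 and is known for holding genes of other lineages and other stages silent.

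Libraries differed in how much was called. The lists held 4740 to 22832 peaks and covered 1.07 to 6.57 Mb, and read depth is unknown. Within an experiment every list was therefore also cut to its strongest peaks by −log10 p until its summed length equalled that of the shortest list, 1.11 Mb in the time course, 1.07 Mb for GSK-126 and 1.40 Mb for GSK-J4. Lists of DIV1 replicate 1 and DIV3 replicate 1, at 1.33 and 1.11 Mb, were much shorter than the others of their days, which covered 3.40 to 6.57 Mb. GSK-126 replicate 3 stood apart in another way, with a peak at 3285 promoters against 2034 and 1348 in the other GSK-126 libraries. Of 8 granule neuron marker promoters, 4 had no peak in any library, among them Zic1 and Pax6. None had one in 12 or more, and their summed coverage was at most 3.52%. A peak in any library was found at 50% of these 8 and at 38% of all promoters. Of all promoters, 9.45% had one in 12 or more, so the counts do not set these markers apart as free of the mark. A region without a peak is below the threshold of the peak caller, not shown to lack the mark.

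Car2 lies on the plus strand of chromosome 3 (mm10, 14886273 to 14900770) and Car4 on the plus strand of chromosome 11 (84957786 to 84966044). The bases just before the Car4 start are shown because the recurrent peak covers most of them, with those of Car14, the family member with a peak in the most libraries, and of Car7, which had none. They are the 250 bases before the RefSeq start in the GRCm38.p6 build, 5′ to 3′, and capitals mark the dinucleotide CG, which reads the same on both strands.
Car4 (chr11:84957504-84957753, plus strand): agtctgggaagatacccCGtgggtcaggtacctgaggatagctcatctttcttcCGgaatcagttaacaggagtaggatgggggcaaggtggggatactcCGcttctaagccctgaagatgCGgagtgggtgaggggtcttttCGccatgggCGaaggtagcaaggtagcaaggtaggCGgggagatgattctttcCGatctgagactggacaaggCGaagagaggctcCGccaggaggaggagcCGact
Car14 (chr3:95904686-95904935, minus strand): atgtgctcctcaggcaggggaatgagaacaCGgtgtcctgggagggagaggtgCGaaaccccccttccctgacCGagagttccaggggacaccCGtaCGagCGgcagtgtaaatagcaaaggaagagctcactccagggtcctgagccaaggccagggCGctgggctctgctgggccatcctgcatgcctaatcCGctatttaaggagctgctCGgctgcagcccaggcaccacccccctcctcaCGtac
Car7 (chr8:104534450-104534699, plus strand): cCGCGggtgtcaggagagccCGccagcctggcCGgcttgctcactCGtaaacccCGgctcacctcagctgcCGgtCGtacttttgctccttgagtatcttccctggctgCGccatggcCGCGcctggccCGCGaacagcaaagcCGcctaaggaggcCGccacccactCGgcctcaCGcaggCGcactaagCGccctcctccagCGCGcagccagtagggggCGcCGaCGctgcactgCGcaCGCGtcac
The Car4 stretch holds 11 CG, and 35.6% of the 32851 promoters in the RefSeq table hold at least as many in the same length, where the median is 6. A peak overlapped it in 20 libraries. Car14 holds 10 and was overlapped in 20 libraries. Car7, a cytoplasmic enzyme found in neurons, holds 27, a number reached by 8.56% of promoters, and was overlapped in 0 libraries. The table matched 11 of the 16 genes.

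With all peaks both promoters carried a peak in 22 of 24 libraries. Of all promoters, 5.24% had one in at least 19 libraries, a looser bound, and 1.3% in all 24. The share at 22 was not computed. At the common length Car2 kept a peak in 19 libraries and Car4 in 12. Both genes were picked from these data, so their place among all promoters is a description. Car2 had 26 peaks. Their fold enrichment over the background of the caller had a median of 4.01 and ranged from 3.68 to 4.85. Car4 had 39 peaks with a median of 3.27 and a range of 2.59 to 4.06. In all 20 libraries with a peak at both genes the strongest Car2 peak had the higher fold enrichment, and it had the better −log10 p in 15 of the 20. Coverage with all peaks was higher at Car2 in 10 of them and higher at Car4 in the other 10.

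Counted from the annotated 5′ ends, the marked stretch sat differently at each gene. At Car2 the bases covered in at least 12 libraries ran mainly from 133 to 943 bp downstream of the 5′ end (chr3:14886406-14887216, 811 bp). The 7-exon Car2 transcript begins 155 bp downstream of that 5′ end, and its first exon ends at 513 bp, so this stretch takes in the first exon, the start codon at 480 bp and part of intron 1. A peak reached across the annotated 5′ end, where a 4-exon transcript starts, in 7 libraries. Counted from the start of the 7-exon transcript, the stretch begins just upstream, so the contrast with Car4 depends on the start used. At Car4 the stretch ran from 208 bp upstream to 458 bp downstream (chr11:84957578-84958244, 667 bp), over the 5′ end, exon 1 with the start codon, and the beginning of intron 1. Here a peak crossed the 5′ end in 18 libraries. All Car2 peaks lay between 164 bp upstream and 1225 bp downstream, and Car4 peaks reached from 1424 bp upstream to 1487 bp downstream.

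**Figure D1:**
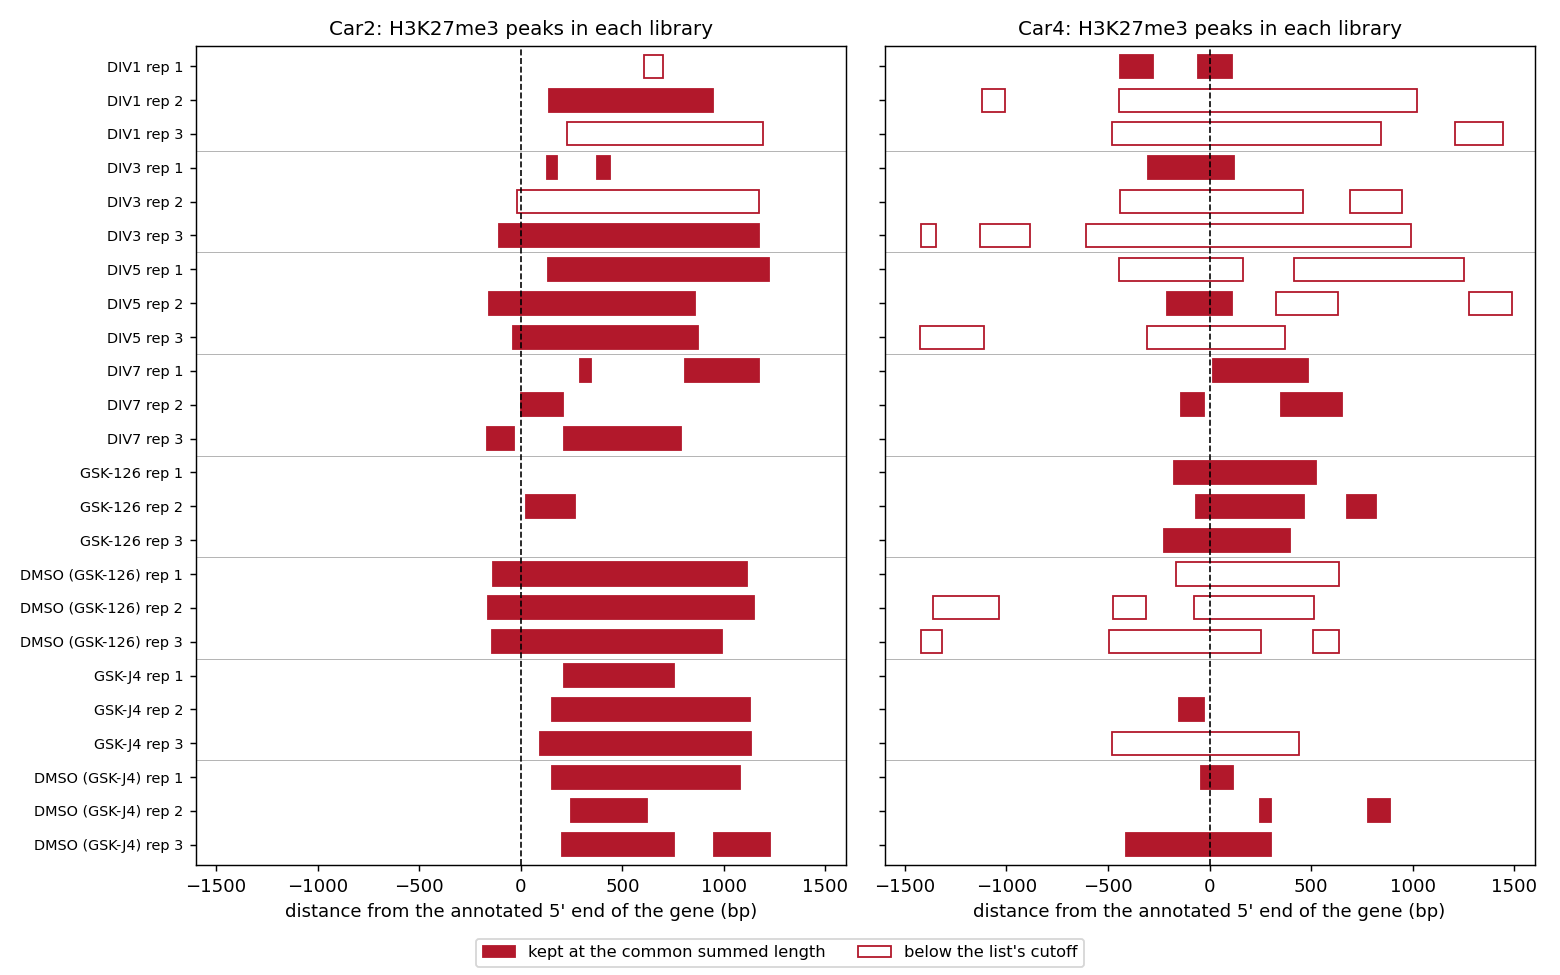
Each row is 1 of the 24 libraries and each bar 1 H3K27me3 peak at Car2 (left) or Car4 (right), placed by distance in bp from the annotated 5′ end (dashed line); filled bars were kept at the common summed length and open bars were not. Car2 peaks lie mainly downstream of this 5′ end, which lies 155 bp before the start of the 7-exon Car2 transcript, and most are filled. Car4 peaks straddle the line and are filled in all 3 GSK-126 libraries and open in all 3 DMSO libraries of that experiment.

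Neither gene body held a peak beyond the promoter window in any of the 24 libraries. Within 100 kb, 10 peaks in 9 libraries lay outside the Car2 promoter, all of them 565 to 1605 bp from the 5′ end of Car3, a cytoplasmic carbonic anhydrase of muscle and fat. The promoter of Car1, the red cell isoenzyme of the same gene cluster, had none. Around Car4, 9 peaks in 6 libraries lay outside the promoter, and of these 1 lay 36 bp from the 5′ end of Pigw and 1 lay 28 bp from that of Znhit3, both in GSK-126 replicate 3.

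In the time course Car2 coverage with all peaks was 1.55, 13.4 and 16.1% at DIV1, 1.92, 19.8 and 21.3% at DIV3, 18.2, 16.9 and 15.2% at DIV5 and 6.93, 3.45 and 11.8% at DIV7, in the order of replicates 1 to 3. The means were 10.3 ± 7.72, 14.4 ± 10.8, 16.7 ± 1.48 and 7.40 ± 4.20% (SD, n = 3 each). DIV1 and DIV3 each held 1 very low library, replicate 1 in both, which were the shortest lists of their days. The DIV7 libraries all lay below the DIV5 libraries, as they did at 17.6% of the 3584 promoters tested with all peaks.

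Cutting the lists to the common length changed only the early days. Car2 then had 0, 13.4 and 0% at DIV1, 1.92, 0 and 21.3% at DIV3, and the same values as before at DIV5 and DIV7. Every library of DIV5 and DIV7 kept its Car2 peaks, against 2 of 3 at DIV3 and 1 of 3 at DIV1. DIV7 averaged 2.93 percentage points above DIV1 at the common length (SE 5.51, limma adjusted p = 0.868), with overlapping groups, and 2.94 points below it with all peaks (difference −2.94, adjusted p = 0.762). DIV7 was 9.34 points below DIV5 (difference −9.34, 95% interval −21.6 to 2.94, adjusted p = 0.954). All 3 DIV7 libraries were below all 3 DIV5 libraries, which held at 4.40% of promoters tested at this length. The steps of DIV3 over DIV1 (3.27 points, adjusted p = 0.985) and DIV5 over DIV3 (9.0 points, adjusted p = 0.908) were within the spread as well. With limma, 0.334% of 1794 promoters were called for DIV3 against DIV1, 0% for DIV5 against DIV3 (66 higher and 48 lower by unadjusted p below 0.05), 0.334% for DIV7 against DIV5 and 1.00% for DIV7 against DIV1. Neither Car2 nor Car4 was among them.

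Car4 coverage with all peaks was 5.52, 26.4 and 26.0% at DIV1, 7.05, 19.3 and 31.9% at DIV3, 24.1, 14.0 and 16.5% at DIV5 and 7.72, 6.90 and 0% at DIV7. The means were 19.3 ± 11.9, 19.4 ± 12.4, 18.2 ± 5.25 and 4.87 ± 4.24% (SD, n = 3 each). As at Car2, replicate 1 was the low library of DIV1 and DIV3, and every DIV7 library lay below every DIV5 library. The slope over the days was −2.23 points per day at Car4 and −0.321 at Car2 with all peaks, which an exact permutation test over 369600 arrangements did not separate from 0 (two-sided p = 0.09 and 0.735, adjusted over 4 slopes 0.36 and 0.735).

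At the common length Car4 lost nearly all of its early coverage. It had 5.52, 0 and 0% at DIV1, 7.05, 0 and 0% at DIV3, 0, 5.33 and 0% at DIV5, and its full 7.72, 6.90 and 0% at DIV7. The only early libraries that kept a Car4 peak were DIV1 replicate 1, DIV3 replicate 1 and DIV5 replicate 2, which had the shortest lists of their days. DIV7 was then 3.03 points above DIV1 (SE 2.88, limma adjusted p = 0.713) where with all peaks it was below (difference −14.4, adjusted p = 0.279). It was also 3.09 points above DIV5 (adjusted p = 1), against a difference of −13.3 with all peaks (adjusted p = 0.828), and the slopes were 0.426 points per day at Car4 and 0.889 at Car2 (exact p = 0.348 and 0.402, adjusted 0.535 each). The direction over time at Car4 thus depended on the length of list used. Without replicate 1 of every day, DIV7 against DIV1 was 0.925 points at Car2 and 3.45 at Car4, in the same direction as with them. Car4 was then covered in too few libraries to be tested. Wherever the genes were tested, limma called no difference between days under any alternative.

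**Figure D2:**
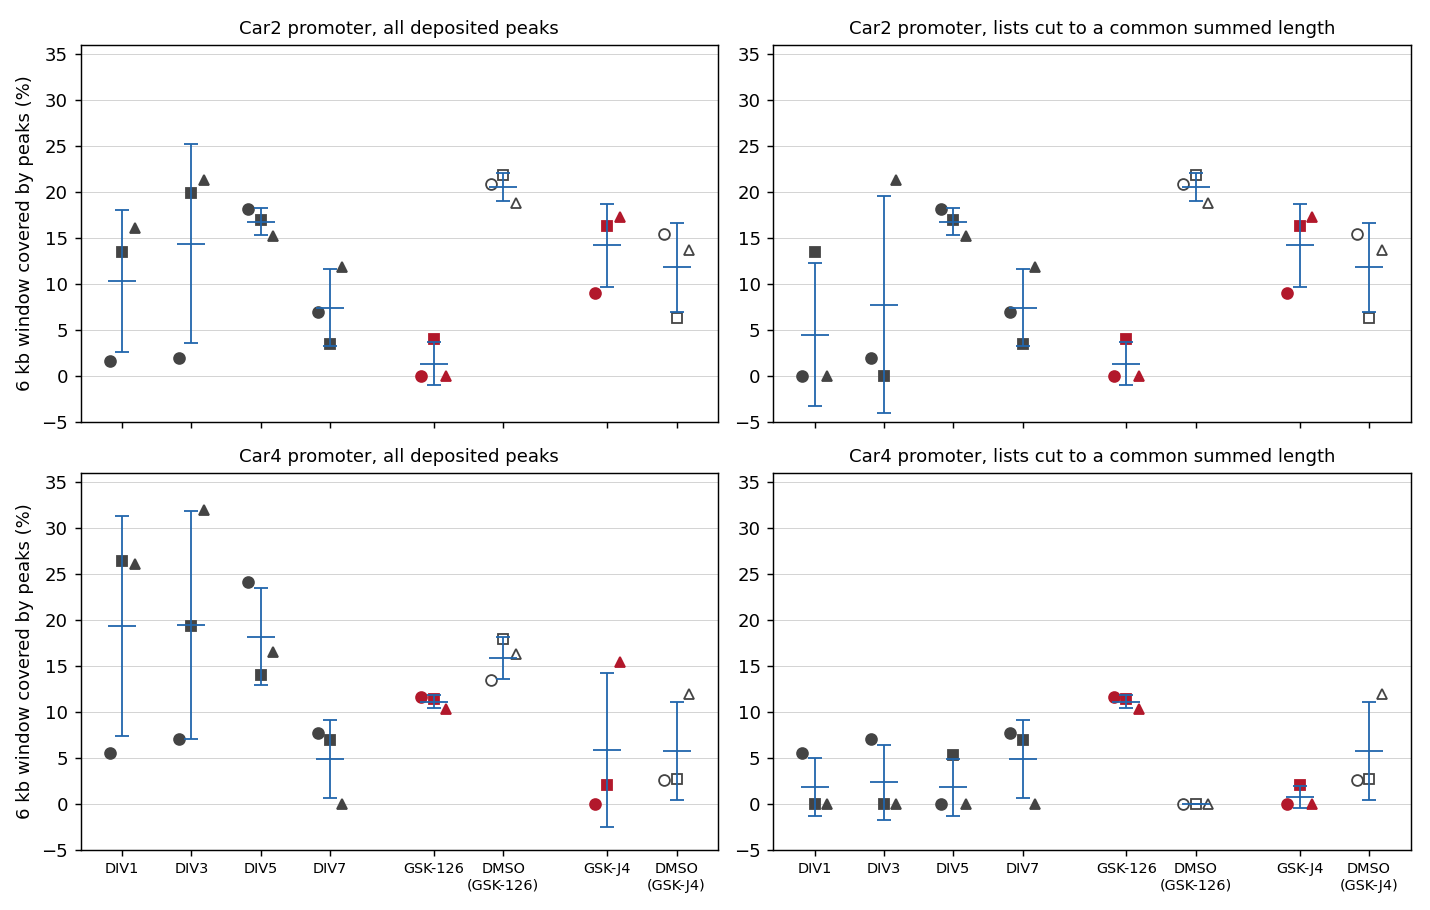
Percentage of the 6 kb promoter window covered by H3K27me3 peaks (vertical axis) at Car2 (top) and Car4 (bottom) in each library by group, with all deposited peaks (left) and at the common summed length (right). Circles, squares and triangles are replicates 1, 2 and 3, open symbols are DMSO, and blue marks are means with bars of 1 SD; Car4 in the DMSO libraries of the GSK-126 experiment stands at 13.4 to 17.9% on the left and at 0 on the right.

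Coverage of both promoters moved with the summed length of the list. A longer list holds more covered bases by construction, and the relation was not computed for other promoters. The permutations below moved libraries freely across groups, so their p-values do not allow for differences between groups. Over the 18 libraries that did not enter the choice of the genes, time course and GSK-J4 together, Pearson's r was 0.699 for Car2 (permutation p = 0.00136, adjusted over 6 relations 0.00272) and 0.882 for Car4 (p = 1e-05, the smallest these permutations can give, adjusted 6e-05). Spearman's rho was 0.746 and 0.743 (permutation p = 0.00064 and 0.00057, adjusted 0.00148 each). Without the 2 libraries farthest from the median length, r was 0.76 and 0.811. Within the time course alone (12 libraries) r was 0.792 for Car2 and 0.891 for Car4 (permutation p = 0.00255 and 0.00013), and rho was 0.748 and 0.853 (p = 0.00716 and 0.00074). Among the 6 libraries of the GSK-J4 experiment r was 0.602 and 0.817 (exact permutation p = 0.199 and 0.0361), rho 0.543 and 0.829 (exact p = 0.297 and 0.0583), and r fell to 0.292 and 0.249 without the 2 farthest libraries, so there it rested on those.

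**Figure D3:**
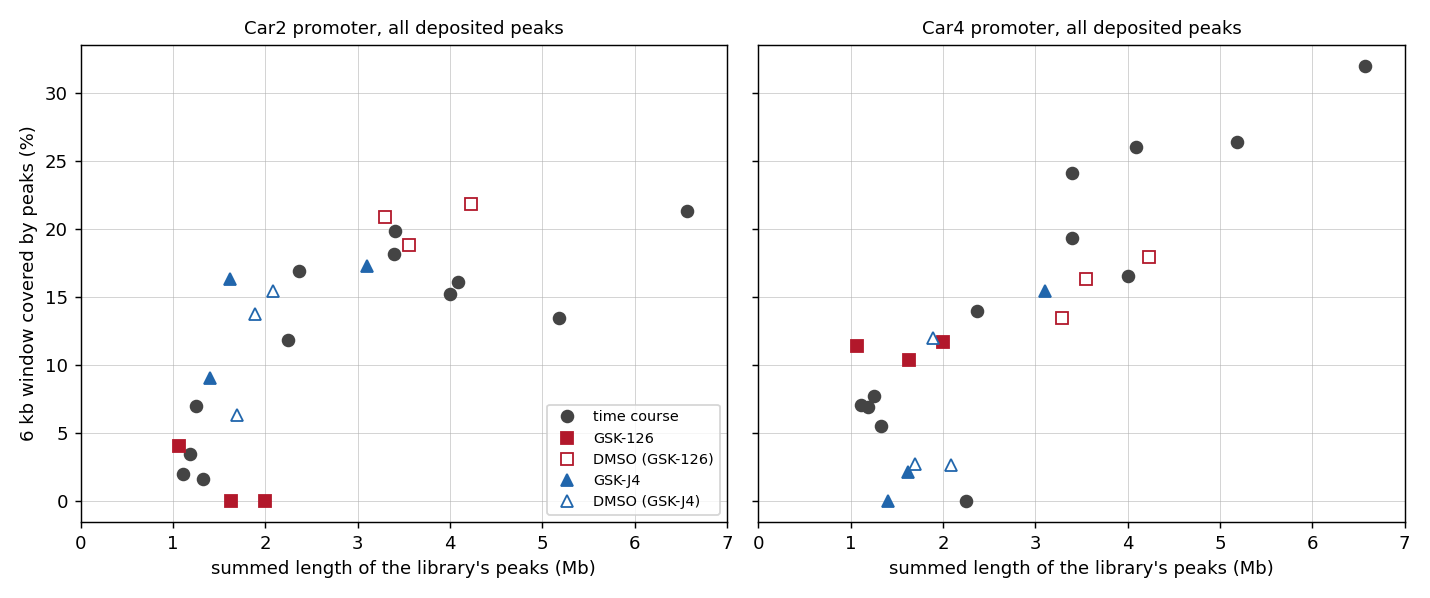
Coverage of the Car2 (left) and Car4 (right) promoter with all deposited peaks (vertical axis, % of the 6 kb window) against the summed length of the peaks in the library (horizontal axis, Mb); each point is 1 of 24 libraries. Coverage is higher in longer lists, with r = 0.699 at Car2 and 0.882 at Car4 over the 18 libraries outside the GSK-126 experiment, and GSK-126 libraries lie at the short end, at 1.07 to 2.00 Mb.

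The GSK-126 comparison was the one that selected the genes. Car2 was covered over 0, 3.98 and 0% of its window in GSK-126 libraries and 20.9, 21.8 and 18.8% in DMSO libraries, with all peaks and at the common length alike. GSK-126 averaged 1.33 ± 2.30% and DMSO 20.5 ± 1.53% (SD, n = 3 each), a difference of −19.2 points. A single peak of 239 bp remained, in GSK-126 replicate 2, from 28 to 266 bp downstream of the 5′ end, where each DMSO library had 1 unbroken peak of 1129 to 1309 bp. That remaining peak had the highest fold enrichment of all 26 Car2 peaks, 4.85, against 3.87 to 4.02 in DMSO. Without GSK-126 replicate 3, the library that stood apart, the difference was −18.5 points.

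Car4 behaved differently. With all peaks it had 11.6, 11.4 and 10.3% in GSK-126 libraries and 13.4, 17.9 and 16.3% in DMSO libraries, so all 3 GSK-126 libraries were lower (11.1 ± 0.684 and 15.9 ± 2.27%, SD, n = 3 each, difference −4.78 points). At the common length the GSK-126 values stayed as they were and all 3 DMSO values became 0, which made the difference 11.1 points, or 11.5 without GSK-126 replicate 3. With all peaks every GSK-126 library lay below every DMSO library at 46.0% of the 2385 promoters tested, and Car2 and Car4 were both among them. At the common length this held at 14.0% of 939 promoters, Car2 included, and the opposite held at 12.4%, Car4 included. The limma call itself was made at 6.82% of promoters, and nothing is read from it for either gene.

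The turn at Car4 came from where its peaks stood against the cutoff of each list. The strongest Car4 peak had a −log10 p of 5.89, 5.58 and 5.29 with GSK-126, where the cutoffs were 5.22, 4.63 and 5.18. In DMSO it had 5.18, 5.37 and 5.27, where the cutoffs were 5.39, 5.44 and 5.41, so its margin to the cutoff was −0.214 to −0.0722. Its fold enrichment was 3.42, 3.65 and 3.57 with GSK-126 and 3.49, 3.51 and 3.47 with DMSO, and the groups overlapped. By rank, it stood at the top 18.9, 54.0 and 53.1% of peaks of the GSK-126 lists and the top 36.4, 21.9 and 29.7% of the DMSO lists. The cut retained 53.5, 100 and 65.6% of the summed length of the GSK-126 lists but 32.5, 25.3 and 30.1% of the DMSO lists. The central Car4 peak was 698, 535 and 620 bp long with GSK-126 and 806, 590 and 749 bp long with DMSO. Peaks more than 1 kb upstream occurred in DMSO replicates 2 and 3 and in no GSK-126 library. Car4 therefore had a peak in all 3 GSK-126 libraries, and Car2 in 1 of the 3.

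**Figure D4:**
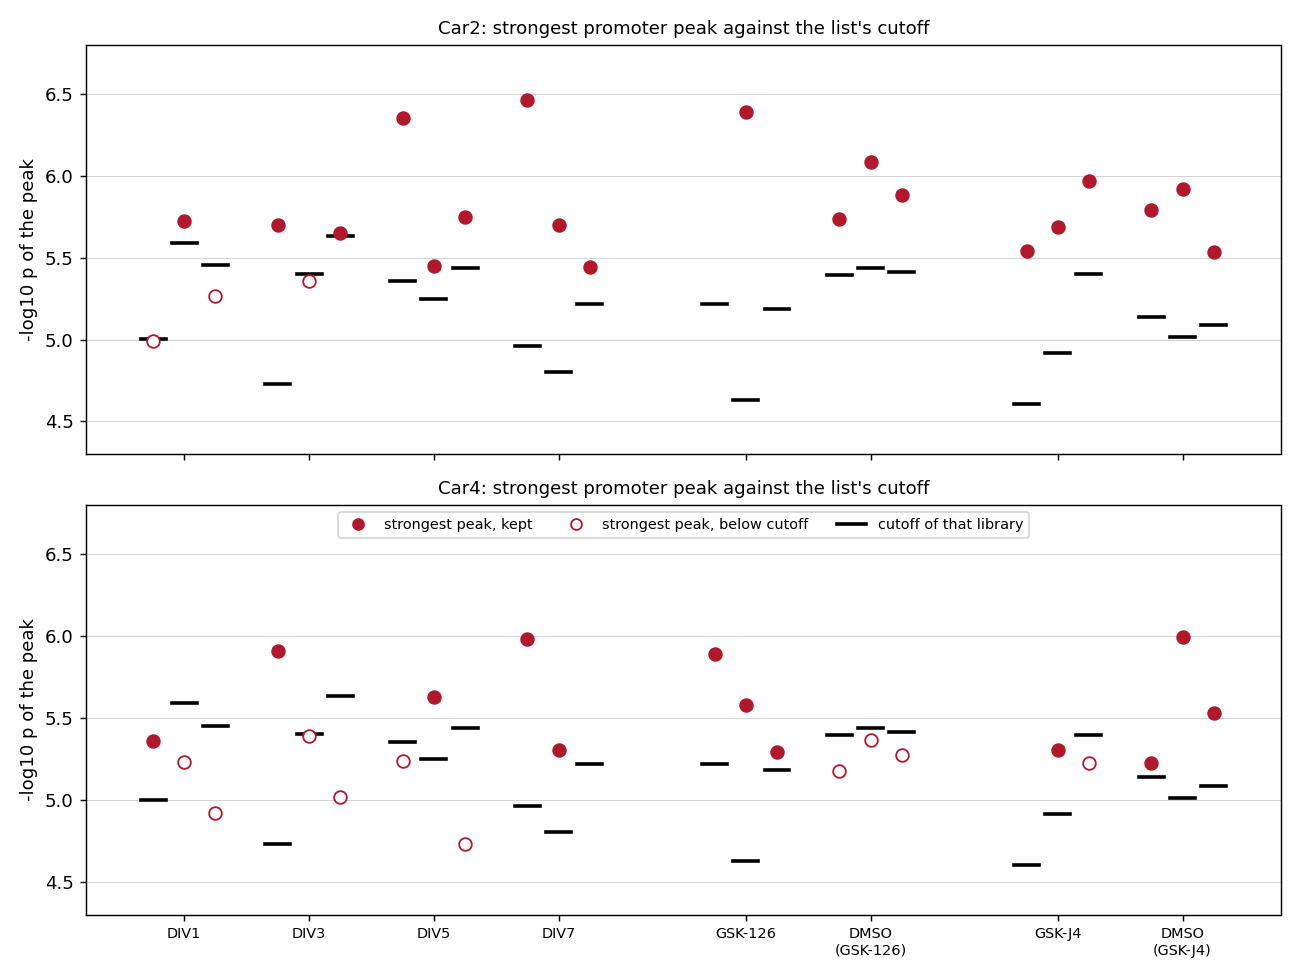
The −log10 p of the strongest promoter peak (red points, filled where kept) and the cutoff of the library at the common length (black bars) at Car2 (top) and Car4 (bottom), 3 libraries a group, with no point where a library had no peak. Car4 lies above the cutoff in the 3 GSK-126 libraries and just under it in the 3 DMSO libraries (5.18 to 5.37, with cutoffs of 5.39 to 5.44).

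Promoters of marker genes of other cell types differed with GSK-126 as well when all peaks were used. Of the 2385 promoters tested that way, 46.0% had every GSK-126 library below every DMSO library, so lower values are not particular to marker genes. Coverage summed over 6 astrocyte and Bergmann glia promoters was 0 to 3.48% with GSK-126 and 15.2 to 21.8% with DMSO, that over 8 oligodendrocyte promoters 2.30 to 5.52% and 6.25 to 17.8%, and that over 6 endothelial promoters 12.6 to 19.7% and 30.4 to 40.7%. The sum over 4 erythroid promoters was 3.32 to 8.12% with GSK-126 and 5.33 to 16% with DMSO, and the groups overlapped. That over 8 granule neuron promoters was 2.23 to 2.78% with GSK-126 and 0 to 2.27% with DMSO, also overlapping. Most of the astrocyte difference lay at 1 promoter, that of the growth factor gene Gdf10, which averaged 1.16% with GSK-126 and 19.1% with DMSO, and the oligodendrocyte lineage gene Sox10 went the other way, with 3.11 and 1.17%. At the common length the ranges overlapped in all 4 lists of other cell types. They were 0 to 3.48% with GSK-126 and 0% with DMSO for the astrocyte list, 0 to 5.52% and 0 to 5.62% for the oligodendrocyte list, 12.6 to 18.7% and 3.70 to 24.3% for the endothelial list, and 0 to 8.12% and 0 to 16% for the erythroid list. Gfap, Aqp4 and Aldh1l1, Olig1, Olig2 and Mog, and Pecam1, Cdh5 and Tek were at 0 in every library. The part of other cells in the Car2 and Car4 values was not tested.

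With GSK-J4 neither promoter passed the test. Car2 had 9.03, 16.3 and 17.3% in GSK-J4 libraries and 15.4, 6.30 and 13.7% in DMSO libraries, at both list lengths. The difference was 2.41 points (95% interval −5.30 to 10.1, limma adjusted p = 0.975), and the groups overlapped. Car4 had 0, 2.07 and 15.4% with GSK-J4 and 2.63, 2.7 and 11.9% with DMSO with all peaks, a difference of 0.0778 points (adjusted p = 0.999). At the common length only 2.07% in replicate 2 was left of the GSK-J4 values while the DMSO values stayed, and the difference was −5.06 points (95% interval −12.0 to 1.86, adjusted p = 0.975). Every GSK-J4 library was then below every DMSO library, as at 4.86% of the 1524 promoters tested. Limma called 0% of promoters for GSK-J4 (33 higher and 40 lower by unadjusted p below 0.05). The interval at Car4 includes a loss larger than its whole DMSO mean of 5.75%.

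Levels of the 8 groups come from separate experiments and lists of unequal length. Ordered by mean coverage with all peaks, Car2 was highest in the DMSO libraries of the GSK-126 experiment (20.5%), then at DIV5 (16.7%), DIV3 (14.4%), with GSK-J4 (14.2%), in its DMSO libraries (11.8%), at DIV1 (10.3%), at DIV7 (7.40%) and lowest with GSK-126 (1.33%). Of these neighbours in the order, the first pair did not overlap and all the others did. The order at Car4 was DIV3 (19.4%), DIV1 (19.3%), DIV5 (18.2%), DMSO of the GSK-126 experiment (15.9%), GSK-126 (11.1%), GSK-J4 (5.83%), its DMSO libraries (5.75%) and DIV7 (4.87%), where only GSK-126 and DMSO of the same experiment did not overlap. The place of GSK-126 in both orders rests on the values that selected the genes. At the common length it remained the lowest of the 8 groups for Car2 and became the highest for Car4, at 11.1%, ahead of the DMSO libraries of the GSK-J4 experiment at 5.75% and DIV7 at 4.87%.

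Among the 16 carbonic anhydrases, 10 had a promoter peak in at least 1 library (62.5%, against 38.0% of all promoters) and 6 in at least 12 libraries (37.5%, against 9.45%). Both counts include Car2 and Car4, which were picked from these data for changed coverage, and this raises the family's shares. The membrane-bound enzyme Car14 had a peak in 23 libraries, Car11, a relative without enzyme activity, in 21, the hypoxia-induced membrane enzyme Car9 in 19 and Car8, another inactive relative known from Purkinje cells, in 15. Car12, Car3, Car10 and Car13 had one in 10, 9, 5 and 3 libraries. The 6 without a peak were Car1, the mitochondrial Car5a and Car5b, the secreted Car6, Car7 and Car15. Peaks were thus found at some soluble, some membrane-bound and some inactive members. Of the cytoplasmic enzymes Car2, Car3 and Car7, Car2, picked from these data, had one in 22 libraries, Car3 in 9 and Car7 in 0.

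Of the family members besides Car2 and Car4, 4 were tested over time, 1 with GSK-126 (Car11) and 3 with GSK-J4. Limma called 0 of them in any of the 6 comparisons (0 also by unadjusted p below 0.05, smallest adjusted p = 0.51, Car8 for DIV7 against DIV1). Of all promoters tested it called at most 1.00% over time, 6.82% with GSK-126 and 0% with GSK-J4. At such shares, 0 calls among so few members do not set the family apart. Car9, with 19 libraries, had 0.667 ± 1.15% at DIV7 and 6.32 ± 7.35% at DIV1 at the common length (SD, n = 3 each, adjusted p = 0.588). For DIV7 against DIV1 the median difference over these 4 was −0.125 points, and over all promoters tested it was 0.283. With all peaks, 8 of the 10 members with a peak averaged lower at DIV7 than at DIV5, where 82.3% of all 4234 promoters with a peak on either day did so. In 4 of the 10, Car2, Car4, Car11 and Car12, the groups did not overlap, as at 14.9% of these promoters. DIV7 averaged lower than DIV1 in 7 of the 10 members and at 79.2% of 4808 promoters. There the groups did not overlap in 2 members, Car9 (difference −11.9 points) and Car11 (difference −17.3), as at 626 of these 4808 promoters. Car2 and Car4 were chosen on the GSK-126 comparison. Of the 6 other members with a peak in that experiment, 5 averaged lower with GSK-126 than with DMSO, as did 59.9% of 6330 promoters with a peak there. Car14 was the exception, at 10.4 ± 5.71% with GSK-126 and 6.85 ± 0.541% with DMSO.

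**Figure D5:**
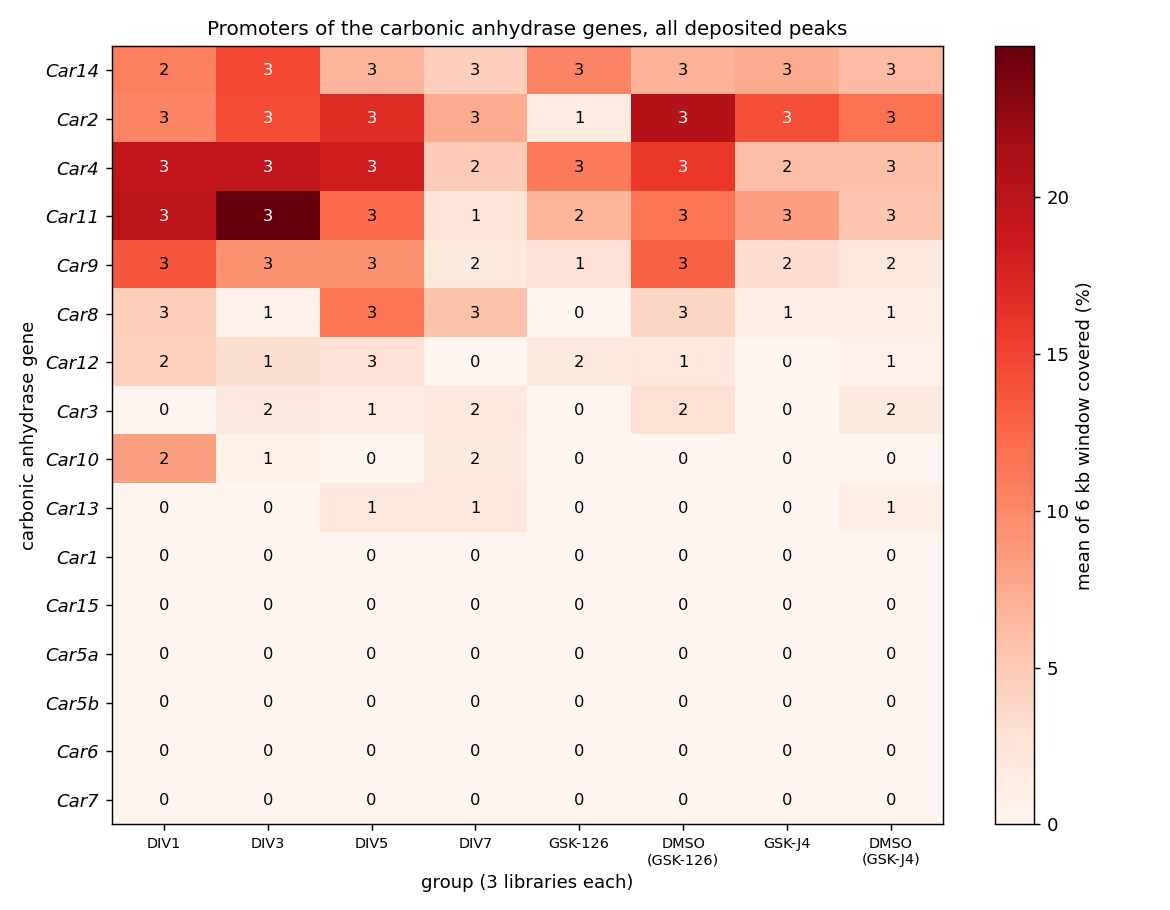
Mean percentage of the 6 kb promoter window covered by all deposited peaks (colour) for the 16 carbonic anhydrase genes (rows) in the 8 groups of 3 libraries (columns); the number in each cell is how many of the 3 libraries had a peak. Peaks recur at Car14, Car2, Car4, Car11 and Car9, and 6 genes have none in any group.

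Bicarbonate and proton transporters work on the ions that carbonic anhydrases make. Of 18 such promoters, 6 had a peak in any library (33.3%, against 38% of all promoters) and 4 in at least 12 (22.2%, against 9.45%). Limma tested 4 of them over time, 2 with GSK-126 and 3 with GSK-J4, and called 0 in any comparison. Of all promoters tested it called at most 1.00% over time, 6.82% with GSK-126 and 0% with GSK-J4. By unadjusted limma p, 1 transporter was below 0.05 for DIV7 against DIV5 and 1 for DIV7 against DIV1. The transporters with recurrent peaks were Slc16a3, a monocarboxylate transporter, and Slc9a3, a sodium and proton exchanger, in 23 libraries each, Slc4a11 in 22 and Slc9a2, another exchanger, in 16. The sodium bicarbonate cotransporter Slc4a4 had a peak in 3 libraries, all of DIV1, and 12 transporters had none.

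Of 1783 promoters covered in at least 6 libraries, the 5 whose coverage at the common length was most like that of Car2 over the 24 libraries were Flnc (Pearson's r = 0.716), Pld1 (0.712), Lmo7 (0.698), Grp (0.683) and Trim36 (0.675). They encode an actin crosslinker, a phospholipase, a LIM domain protein, a neuropeptide and a ubiquitin ligase. Flnc averaged 2.82% with GSK-126 and 20.2% with DMSO, close to Car2 at 1.33 and 20.5%. For Car4 they were Tesc (0.791), a calcium-binding protein, Pkp1 (0.784), a desmosome protein, Npy (0.771), the neuropeptide Y gene, Olfm2 (0.752) and Ghsr (0.699), the ghrelin receptor. Tesc averaged 11% with GSK-126 and 0% with DMSO, and Npy 22.2% and 2.77%. These correlations describe libraries that share experiments and cutoffs, and they include the comparison that selected Car2 and Car4.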

How the data were processed

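H3K27me3 CUT&RUN libraries of cultured CGNs were analysed from the broad peak lists deposited for each library. Per the submitters' processing notes and the methods, the authors used FastQC and Trimmomatic 0.38 for read quality and trimming, STAR 2.7.2b for alignment to mm10, and MACS2 2.1 for broad peak calls, made library by library at a false discovery rate of 0.1. Each deposited peak has a fold enrichment (a ratio over local background) and −log10 values of its p and q. The lowest −log10 q was 1.00 in every list. The control used for the calls is not given in the sources used here. The authors' read counts were not used here, and read depth is unknown.

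Coverage of 6 kb windows around the 5′ ends of 21938 protein-coding genes (GENCODE vM21, mm10, mitochondrial genes left out) was computed from all peaks and at the common length. Promoters covered in at least 3 libraries of an experiment were tested with limma 3.58.1 (lmFit, robust eBayes, two-sided, R 4.3.3), with Benjamini-Hochberg adjustment over all of them and calls at an adjusted p below 0.05. One model held the 12 time course libraries, and each drug experiment of 6 libraries was fitted alone. Other calculations used Python 3.11.15, numpy 2.4.6, pandas 2.3.3, scipy 1.17.1 and matplotlib 3.10.9. Groups came from the sample titles. Replicates are cultures from pooled litters. The closest pair of libraries shared 32.1% of its covered bases, so none was a duplicate. Promoter sequences are from RefSeq (GRCm38.p6).

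The genes Car2 and Car4 and all lists were chosen with earlier results of these data known. Named besides them were the other carbonic anhydrases, genes with a 5′ end within 100 kb, the transporters with the most marked libraries and the 5 promoters most like each gene (Gm and Rik models and overlapping windows left out). Alternatives were all deposited peaks, 1 summed length (1.07 Mb) for all 24 libraries, a −log10 q of at least 2 with no common length, lists cut by fold enrichment rank, windows reaching 1 kb either way, a filter of 1 covered library, the replicate number as a block and leaving out each library. Leaving out replicate 1 of every day was chosen after seeing the data. Same-numbered libraries deviated together weakly at most. Their correlations were −0.0688 to 0.157 in the time course, −0.0585 to 0.093 for GSK-126 and 0.0272 to 0.0335 for GSK-J4. Differently numbered libraries gave −0.134 to 0.0658, −0.103 to 0.0627 and −0.037 to 0.00271, so for GSK-J4 the ranges did not overlap. Because the correlations were small, replicate numbers were not taken as pairs.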

Additional observations from a re-analysis of the deposited data

How the results depend on the processing

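The tested differences at Car2 and Car4 over time and with GSK-J4 stayed above an adjusted p of 0.05 under every alternative in which they could be tested (lowest 0.239), but several turned direction. Car4 over time was not tested with a −log10 q of at least 2 or without replicate 1 of every day, and neither gene was tested for GSK-J4 with a −log10 q of at least 2, where too few libraries were covered. For DIV7 against DIV1, Car2 was −2.94 points with all deposited peaks, −0.272 with 1 length for all 24 libraries, −4.19 with a −log10 q of at least 2 and −6.14 when ranked by fold enrichment. Car4 was −14.4 with all deposited peaks, and −13.3 for DIV7 against DIV5. For DIV3 against DIV1 Car2 was −9.70 ranked by fold enrichment, for DIV5 against DIV3 it was −1.06 with a −log10 q of at least 2, and Car4 was 2.67 there without replicate 1 of every day. With GSK-126, Car2 was −12.2 points with a −log10 q of at least 2 and also when ranked by fold enrichment. It was −53.2 in the window reaching 1 kb either way, which is smaller by design. Car4 was −4.78 points with all deposited peaks, 0 at a −log10 q of at least 2 and 3.78 ranked by fold enrichment. In the window reaching 1 kb either way it was 33.3. With GSK-J4, Car4 was 0.0778 points with all deposited peaks. The causes were not tested, other than the smaller window.

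Leaving out 1 library gave these ranges. For DIV7 against DIV1 Car2 lay between 0.692 and 7.40 points and Car4 between 1.61 and 5.47. For DIV3 against DIV1 Car2 lay between −3.51 (without DIV3 replicate 3) and 7.74, and Car4 between −1.84 (without DIV3 replicate 1) and 2.35. For DIV5 against DIV3 Car2 lay between 5.13 (without DIV3 replicate 2) and 15.8 (without DIV3 replicate 3), and Car4 between −2.35 and 1.78. For DIV7 against DIV5 Car2 lay between −11.6 and −7.37, and Car4 between 1.67 (without DIV7 replicate 1) and 5.53 (without DIV7 replicate 3). With GSK-J4 Car2 lay between −0.344 (without DMSO replicate 2) and 4.99 and Car4 between −6.62 and −1.98, and with GSK-126 Car2 between −20.5 and −18.5 and Car4 between 10.8 and 11.5.

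Promoters called for DIV7 against DIV1 numbered 18, 40 from all deposited lists, 0 with a −log10 q of at least 2 (limma, 5 higher and 27 lower by unadjusted p below 0.05), 5 ranked by fold enrichment, 4 without replicate 1 of every day, and 0 (without DIV7 replicate 1; 90 and 82 by unadjusted p below 0.05) to 33 (without DIV1 replicate 1) when 1 library was left out. It was 5 without DIV7 replicate 3. For GSK-126 they numbered 64, 641 with all deposited peaks and 20 at a −log10 q of at least 2. The replicate block gave 0 calls for GSK-126 (limma, 71 higher and 93 lower by unadjusted p below 0.05) and 18 for DIV7 against DIV1, and it left the tested differences at Car2 and Car4, over time and with GSK-J4, above 0.05. The GSK-126 values of Car2 and Car4 are a description only, and no call is read for them. Leaving out 1 library gave 0 (without GSK-126 replicate 1 or 3 or DMSO replicate 2; 20 and 108, 24 and 83, and 66 and 97 by unadjusted p below 0.05) to 22 calls. It was 4 without GSK-126 replicate 2. Calls for GSK-J4 stayed at 0 in limma under every alternative.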
